A study of Mus musculus with 33 samples.

Results

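The genes described here tie blood-forming and immune cells to the bone marrow, and were followed across cell types and tissues. They are 4 secreted or membrane-bound ligands, Cxcl12, Kitl, Angpt1 and Il7, and 3 receptors, Cxcr4, Kit and Il7r. The members were chosen as a list of genes by name, 7 of the 32285 genes in each count matrix, and were left out of the genes used to cluster cells and of all marker lists.

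The study collected mouse femurs and tibias (called bone here), brains, livers and lungs after an overnight labelling period of about 10 h with the substrate of SAMENT, a sortase-based method that puts biotin on cells that neighbour tagged cancer cells, and sorted the cells into biotin positive and biotin negative. Single-cell RNA sequencing followed. The samples labelled with an intracardiac injection form 8 groups of 4, a positive and a negative group for bone, brain, liver and lung, 32 samples in all, read from the 3′ end. A second bone experiment, labelled with an IIA injection, came as 1 pooled matrix read from the 5′ end, in which 12 hashtags mark 6 positive and 6 negative samples. All groups therefore carry the labelling and an injection, and none is an untreated tissue. Strain, genotype, sex, age, cancer line and the number of mice behind each sample were not stated, so p-values measure the spread between samples, which may be technical in part. Intracardiac samples with the same replicate number shared 0 cell barcodes over 112 pairs, as samples of 1 multiplexed pool would, against 341 shared barcodes over 384 pairs with different numbers. The labels do not name such pools. The number is read as one from these barcodes and is called the pool below.

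In background terms, CXCL12 is a chemokine of marrow stroma and vessels that holds CXCR4-bearing stem cells, neutrophils and B cells in place. Kit ligand (stem cell factor) keeps KIT-bearing stem and progenitor cells and mast cells alive, and in the marrow comes mainly from perivascular stroma and endothelium. Angiopoietin-1 acts on the TEK receptor of endothelium and stem cells. IL-7 is a stromal cytokine that lymphoid cells need, read through the IL-7 receptor alpha chain, which also pairs with another chain to read TSLP.

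After filtering, 55366 intracardiac and 22362 IIA cells remained. Samples held 94 to 3505 cells and 482617 to 44834665 unique molecular identifiers (UMIs, each standing for 1 captured transcript). Cells of the microglia class made a median of 13.3% of positive brain cells and 0% in the other 3 tissues, and alveolar macrophages made a median of 41.3% of positive lung cells, as the tissue labels would have it. Marrow-type classes were not confined to bone. Stem or progenitor cells made a median of 0.340% of negative brain and 0.149% of negative bone cells. Immature neutrophils made 13.4% and 47.7%, against 1.03% in negative lung. Negative brain replicate 1 alone held 43.33% and 41.3% of the cells of the intracardiac B cell precursor clusters. Clusters that could not be named held 7.295% of intracardiac and 14.9% of IIA cells. Levels are given as CPM, a gene's UMIs scaled to a common total of 1000000 UMIs, of all cells of a sample summed, or of all its cells of a class. In such sums, fewer cells of a type and less RNA per cell cannot be told apart. Levels of different genes are not compared with each other.

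The counts behind the members differed widely. Cxcr4 had 42735 UMIs in the intracardiac and 7652 in the IIA cells, Il7r 23694 and 2398, and Kit 5704 and 6467. Kitl had 2070 and 459, Cxcl12 1692 and 356, Angpt1 1104 and 3393, and Il7 112 and 33. The ligands thus rested on few cells, and Il7 passed the filter on low counts in no comparison.

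Sequences of the start-site region, 250 bases before to 50 after the start in RefSeq's annotation of GRCm38.p6 (the mm10 build), were matched by symbol for 5 of the 7 members. For Kitl and Il7r the start used lies inside the gene positions given below, not at their outer edge. Cxcl12 and Kitl are shown because both ligands were read in endothelial and stromal classes, and Il7r because it was read in lymphoid cells. Capitals mark the GC box, GGGCGG or its reverse complement CCGCCC, overlapping copies included. The Cxcl12 region is chr6:117168285-117168584 on the plus strand, the Kitl region chr10:100015571-100015870 on the plus strand, and the Il7r region chr15:9529827-9530126 on the minus strand, each written 5′ to 3′.
Cxcl12: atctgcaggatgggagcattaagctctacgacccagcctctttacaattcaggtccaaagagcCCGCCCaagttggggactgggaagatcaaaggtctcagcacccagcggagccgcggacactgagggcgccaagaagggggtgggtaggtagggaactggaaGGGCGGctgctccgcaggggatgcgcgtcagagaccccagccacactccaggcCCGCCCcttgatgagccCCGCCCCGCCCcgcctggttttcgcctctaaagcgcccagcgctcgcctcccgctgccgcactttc
Kitl: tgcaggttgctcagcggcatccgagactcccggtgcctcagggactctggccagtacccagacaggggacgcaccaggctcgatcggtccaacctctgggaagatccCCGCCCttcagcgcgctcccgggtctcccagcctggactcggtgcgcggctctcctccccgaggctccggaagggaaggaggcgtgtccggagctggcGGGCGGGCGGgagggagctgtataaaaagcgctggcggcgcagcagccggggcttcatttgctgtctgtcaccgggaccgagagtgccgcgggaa
Il7r: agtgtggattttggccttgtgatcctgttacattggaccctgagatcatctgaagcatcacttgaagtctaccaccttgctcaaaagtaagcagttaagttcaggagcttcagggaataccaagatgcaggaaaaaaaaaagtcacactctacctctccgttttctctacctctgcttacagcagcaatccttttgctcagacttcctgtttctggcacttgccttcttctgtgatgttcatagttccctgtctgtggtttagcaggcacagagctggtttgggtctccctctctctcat
The Cxcl12 region held 5 GC boxes, 64.67% G or C and 20 CpG, and the Kitl region 3 boxes, 68.67% and 28 CpG. The Il7r region held 0 boxes, 45.67% G or C and 1 CpG. Of the receptors not shown, Cxcr4, whose highest intracardiac class was B cells, had 3 boxes, 59.33% and 20 CpG, and Kit 1 box, 69% and 20 CpG. Of 27025 mouse promoters of the same length, 9704 (35.91%) held the box, and the median promoter had 52.67% G or C and 7 CpG. A match of these letters is a description and not a binding site.

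Bone was compared with the mean of brain, liver and lung, and positive with negative cells in each tissue, with edgeR's quasi-likelihood test on sample sums and Benjamini-Hochberg adjustment over all genes tested. In negative cells 1 of 6 members tested passed, Il7r, lower in bone, where 16.8% of all 13096 genes passed and 6.83% passed lower, and the members' median log2 change was -0.64 against -0.01 for all genes. In positive cells 0 of 6 passed (1 at an unadjusted p under 0.05, 1 by DESeq2), where 31.5% of 12843 genes did, with medians of 0.37 and 0.01. Positive against negative, 0 of 5 passed in bone (1 unadjusted, 0 by DESeq2), where 0% of 12533 genes did (983 unadjusted, 53 by DESeq2). In brain 1 of 6 passed, Kitl, higher, against 3.06% of all genes and 2.88% higher. In liver 0 of 5 passed (3 unadjusted, 1 by DESeq2), against 0% of all genes (1571 unadjusted, 431 by DESeq2). In lung 3 of 5 passed, Cxcl12 higher and Cxcr4 and Il7r lower, against 18.3% of all genes, 11.5% higher and 6.8% lower. In IIA bone 3 of 6 passed, Cxcl12 and Kit higher and Cxcr4 lower, against 50.2% of all genes, 27% higher and 23.2% lower, so that the members' share was that of the background. The difference between the biotin contrast of bone and that of the other 3 tissues passed for 0 of 6 members (0 unadjusted, 0 by DESeq2) and for 0% of 13963 genes (1057 unadjusted, 3 by DESeq2), so no member's response to the sort was shown to differ in bone.

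**Figure D1:**
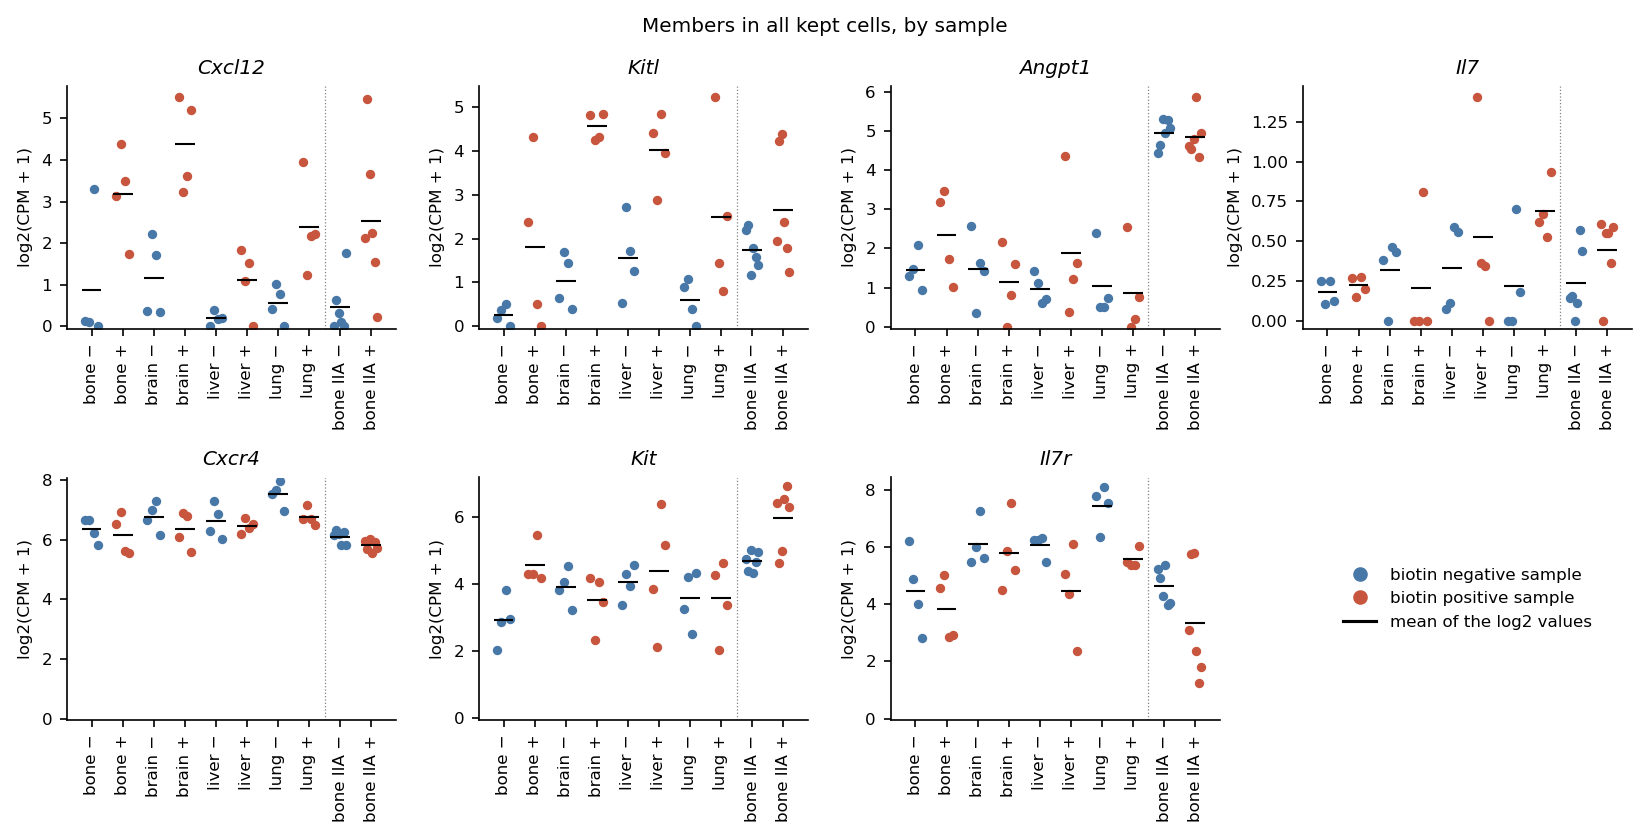
Level of each member in every sample, all cells summed, as log2(CPM + 1) on the vertical axis, for the 8 intracardiac groups and, right of the dotted line, the 2 IIA groups, whose chemistry differs. Points are samples and bars are group means. Cxcl12 and Kitl lie higher in positive than in negative brain cells without overlap, Il7r lies highest in negative lung cells, and Il7 lies near 0 everywhere.

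The ligand Cxcl12 (chr6:117168535-117181368) came almost wholly from stroma and vessels. In bone, 723 of its 748 UMIs (96.66%) lay in 36 cells of the mesenchymal stromal class, which made 0.225% of the bone cells. In IIA bone, 354 of 356 UMIs (99.44%) lay in 202 mesenchymal cells. In brain 410 of 457 UMIs (89.72%) lay in 100 endothelial cells, and in lung 398 of 444 (89.64%) lay in 232 endothelial cells. Intracardiac bone held 7 endothelial cells and IIA bone had no endothelial class, so that endothelial Cxcl12 of bone was not compared. Of the lung UMIs, 349 came from positive replicate 1 alone. Liver had 43 Cxcl12 UMIs in all, 13 of them in 448 endothelial cells. Over all intracardiac samples, 23.0% of endothelial cells had a Cxcl12 UMI at a median of 2938 UMIs per cell, against 0.0381% of B cells, which should lack it, at a median of 2220.

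Summed over all cells, Cxcl12 in negative bone was 0.0947, 0.0747, 8.87 and 0 CPM in replicates 1 to 4, and in positive bone 7.74, 19.9, 10.3 and 2.33 CPM. Replicate 3 stood apart among the negative samples: 230 of its 233 UMIs came from 3 mesenchymal cells. Negative cells of the other tissues reached at most 3.69 CPM, in brain. Bone was 2.43 higher on the log2 scale in negative cells (SE 1.15, adjusted p = 0.145), and 3.06 lower without negative bone replicate 3 (log2 change -3.06, adjusted p = 0.165), so 1 sample set the direction. In positive cells, brain had 44.2, 8.40, 11.3 and 35.8 CPM, lung 14.3, 1.35, 3.53 and 3.63 CPM, and liver 2.59, 1.14, 1.88 and 0 CPM. Positive bone lay within the range of brain and lung, and the log2 difference from the 3 tissues together was 0.88 (SE 0.55, adjusted p = 0.227). Against positive liver alone, Cxcl12 was higher in bone by 2.80 on the log2 scale (SE 0.82, adjusted p = 0.0412), where 12.5% of all genes passed. Against brain it was -1.14 (adjusted p = 0.252) and against lung 0.98 (adjusted p = 0.303).

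Cxcl12 was higher in positive than negative cells in 4 of 4 pools of bone, brain and lung and in 3 of 4 pools of liver. In lung the negative samples had 0.346, 1.02, 0.730 and 0 CPM, all below the positive ones, and the log2 change of 3.22 passed the test (SE 0.96, adjusted p = 0.0467). With the pool as a block it did not (2.92, SE 1.06, adjusted p = 0.102), and it did not without any 1 of 6 of the 8 samples (adjusted p = 0.0568 to 0.136). In brain the negative samples had 0.304, 3.69, 2.27 and 0.279 CPM, again without overlap, with a log2 difference of 3.86 (SE 0.96, adjusted p = 0.0647). It passed with DESeq2 (adjusted p = 0.000836), without the filter on low counts (0.0398) and without negative replicate 2 (0.0458). In bone the log2 difference was 1.87 (SE 1.49, adjusted p = 0.694), and it ran from 1.38 to 7.35 on leaving out 1 sample, with the upper value without negative replicate 3. Genes whose groups did not overlap made 21.6% of all genes in lung and 15.5% in brain. The 16 endothelial markers moved the same way: their summed level was 29.5 to 129 CPM in negative and 129 to 723 CPM in positive brain, and 26.2 to 97.1 against 119 to 998 CPM in lung, with 0 markers at 0 throughout. The part of the cell mix in these results was not tested.

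Within endothelial cells, which were too few in bone to compare (7 cells), Cxcl12 lay in 1 of the 2 endothelial clusters. The lung and brain cluster, led by Ly6c1 and Cldn5 (338 cells), had 438 CPM over its cells, and the liver cluster, led by Clec4g (449 cells), had 2.89 CPM. In negative brain, endothelial Cxcl12 was 265, 562, 826 and 1278 CPM, and in positive brain 1084, 671, 945 and 716 CPM, so that the sorts overlapped. Lung endothelium with at least 3 cells ranged from 68.1 to 1282 CPM, and liver endothelium from 0 to 43.9 CPM in all 8 samples. These are levels of clusters and are given without a test.

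**Figure D2:**
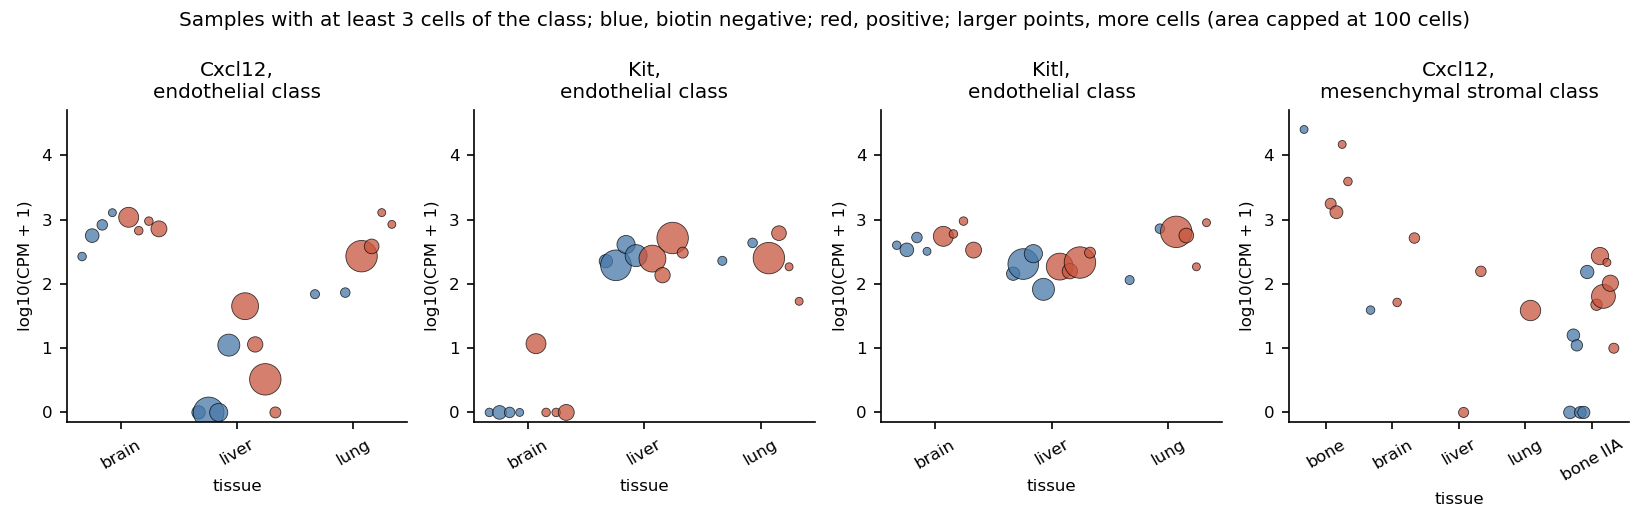
Levels within the endothelial and mesenchymal stromal classes as log10(CPM + 1), a log scale, by tissue. Each point is a sample with at least 3 cells of the class, its area the number of cells (capped at 100), blue for biotin negative and red for positive. Cxcl12 is low in liver endothelium, Kit is at or near 0 in brain endothelium, and Kitl is present in the endothelium of brain, liver and lung.

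Stromal Cxcl12 in intracardiac bone was counted in very few cells. Positive bone held 142 UMIs in 9 mesenchymal cells (1764 CPM), 174 in 14 (1300 CPM), 144 in 3 (14747 CPM) and 32 in 4 (3915 CPM). The 40 mesenchymal cells of positive lung replicate 1 held 6 UMIs (38.7 CPM), below each of the positive bone samples. IIA mesenchymal cells had 0, 14.9, 10.1, 0, 0 and 152 CPM in the negative samples and 46.3, 270, 62.8, 214, 101 and 8.97 CPM in the positive ones. The sorts overlapped through negative sample 6 and positive sample 6. Over the 10 samples with at least 10 cells of this class, the log2 difference was 1.99 (SE 0.86, adjusted p = 0.303), where 3.03% of all genes and 0 of 3 members passed (1 unadjusted). It passed without the filter on low counts (2.02, adjusted p = 0.00228) and without negative sample 6 (4.53, adjusted p = 0.0055), while without positive sample 2 it was 1.21 (adjusted p = 0.704) and with DESeq2 the adjusted p was 0.780.

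In all IIA cells, Cxcl12 ranged from 0 to 2.42 CPM in negative samples (median 0.164) and from 0.168 to 42.7 CPM in positive ones (median 3.55). The groups overlapped, and the log2 change was 3.85 (SE 1.21, adjusted p = 0.0192). Without positive sample 2, the highest, it was 2.50 (adjusted p = 0.0610). The 19 mesenchymal markers summed to 141 to 397 CPM (median 213) in negative and 100 to 4213 CPM (median 528) in positive samples, with 0 markers at 0, and the class made a median of 0.442% of negative and 1.78% of positive cells. Their part in the change was not tested.

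Kitl, the ligand of Kit (chr10:100015615-100100416), was read in endothelium, stroma and macrophages. Endothelial cells held 889 of the 977 lung UMIs (90.99%), 57.82% of those in brain and 59.82% of those in liver. Positive lung replicate 1 alone held 884 of the lung UMIs. In bone 195 of 283 UMIs (68.9%) lay in 520 macrophages and 44 (15.55%) in mesenchymal cells, and positive bone replicate 2 alone held 172 of the 283. In IIA bone 361 of 459 UMIs (78.65%) lay in mesenchymal cells and 16.34% in macrophages. The highest intracardiac class mean, over samples with at least 20 cells of a class, was that of endothelium at 295 ± 187 CPM (SD, n = 9 samples), above macrophages at 37.3 ± 40.8 (n = 14) and microglia at 24.3 ± 2.24 (n = 3), which did not differ beyond their spread.

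Negative bone had 0.142, 0.299, 0.419 and 0 CPM of Kitl, negative lung 0.864, 1.10, 0.313 and 0 CPM, and negative liver 0.454, 5.59, 2.28 and 1.41 CPM. Bone and lung overlapped. The lowest liver sample (9 UMIs) and the highest bone sample (11 UMIs) lay close together, and the log2 difference of bone from liver alone was -3.32 (SE 1.06, adjusted p = 0.0637). The log2 difference of bone from the 3 tissues was -2.30 (SE 0.94, adjusted p = 0.0974), and with the pool as a block, -2.31 (SE 0.70, adjusted p = 0.0248). With DESeq2 it also passed (adjusted p = 0.0312). In positive cells, bone had 4.23, 19.0, 0.421 and 0 CPM, brain 27.3, 18.1, 18.8 and 27.9 CPM, and liver 20.1, 6.41, 27.7 and 14.5 CPM. Positive bone thus ran from none to the level of brain, and its log2 difference was -1.36 (SE 1.02, adjusted p = 0.311). It was -3.06 without positive bone replicate 2 (adjusted p = 0.0505) and -0.63 without positive lung replicate 1 (adjusted p = 0.601).

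Kitl rose in positive brain cells. Negative brain had 0.557, 2.24, 1.70 and 0.314 CPM, all below the positive samples, where 15.5% of all genes had no overlap, and the log2 change was 4.16 (SE 0.59, adjusted p = 0.0155). The call was lost without negative replicate 1 (adjusted p = 0.0675), negative replicate 4 (0.0953) or positive replicate 4 (0.0566). In liver the groups did not overlap either, as in 6.52% of all genes, with a log2 difference of 2.59 (SE 0.74, adjusted p = 0.214; with DESeq2 adjusted p = 0.0158). In lung, positive cells had 36.3, 1.72, 0.735 and 4.77 CPM, and the log2 difference was 3.97 (SE 1.31, adjusted p = 0.0646; with DESeq2 adjusted p = 0.0338). Without positive replicate 1 it was 1.775 (adjusted p = 0.270). In IIA bone, negative samples had 1.25 to 3.99 CPM (median 2.23) and positive ones 1.35 to 19.9 CPM (median 3.53), with a log2 difference of 1.48 (SE 0.64, adjusted p = 0.0714). With DESeq2 it passed (adjusted p = 0.0372), as it did without positive sample 5 or 6 (adjusted p = 0.0422 and 0.0324). Without positive sample 3 it was 0.94 (adjusted p = 0.217).

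Within brain endothelium Kitl was 398, 337, 525 and 320 CPM in negative and 547, 596, 945 and 334 CPM in positive samples. Liver endothelium had 143, 202, 294 and 81.2 CPM in negative and 185, 156, 214 and 305.02 CPM in positive samples. The last value rests on few counts, as positive liver replicate 4 held 94 cells and 7 Kitl UMIs in all. The endothelial class made a median of 0.462% of negative and 2.36% of positive brain cells, and 2.85% and 7.74% of liver cells. Macrophages and microglia, which held 24.4% and 15.38% of the brain Kitl UMIs, also differed in share, at medians of 0.960% and 0.525% of negative and 22.1% and 13.3% of positive brain cells. The 21 macrophage markers summed to 769.7 to 4564 CPM in negative and 12760 to 52140 CPM in positive brain, with 0 at 0. Kitl within the endothelial cells was higher in the positive sample of the pool in 4 of 4 pools of brain and 2 of 4 of liver, while the ranges of the sorts overlapped. The parts of these cell shares and of the level per cell in the change were not tested.

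In bone most Kitl UMIs lay in macrophages, and no test between the sorts was made there. Positive bone macrophages had 105, 137, 40.4 and 0 CPM, and negative ones 0, 0, 12.5 and 0 CPM, from 20 negative cells in all, so that the sorts overlapped. In IIA bone 0 UMIs were read in the 378 negative macrophages, which allows up to 1.65 CPM, and the 6 positive samples had 0, 10.2, 16.9, 34.4, 23.6 and 6.90 CPM. All 78 cells of the smaller macrophage cluster, led by Vcam1, Cd5l and Mertk, were positive, and it held 37 UMIs (129 CPM) against 38 UMIs (5.44 CPM) in the larger one. These sums did not pass the filter for the test. In IIA mesenchymal cells, Kitl was 45.2 to 108 CPM in negative and 35.6 to 134 CPM in positive samples. The log2 difference over the 10 samples with at least 10 such cells was -0.38 (SE 0.25, adjusted p = 0.555).

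Angpt1 (chr15:42424667-42676977) was read in blood progenitors as well as stroma. In bone 204 of 501 UMIs (40.72%) lay in 127 cells of the stem or progenitor class and 14.77% in 75 basophils, and 31.34% in unnamed clusters. In IIA bone 2110 of 3393 UMIs (62.19%) lay in the stem or progenitor class, 12.7% in mesenchymal cells and 7.899% in basophils. In IIA bone its order was stem or progenitor cells at 924 ± 284 CPM (SD, n = 6), basophils at 414 ± 100 (n = 4), mesenchymal cells at 115 ± 16.01 (n = 3) and plasmacytoid dendritic cells at 57.1 ± 45.5 (n = 6). The ranges of 1 SD around the means overlapped for the last 2 and for no other neighbours. In intracardiac samples stem or progenitor cells were again high, at 155 ± 47.6 CPM (n = 3, from bone and brain), and NK cells had 21.9 ± 15.4 (n = 13).

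Over all cells, negative bone had 1.47, 1.79, 3.24 and 0.914 CPM of Angpt1, and negative brain 4.91, 0.264, 2.08 and 1.67 CPM. The groups overlapped, and the log2 difference of bone from the 3 tissues was 0.49 (SE 0.58, adjusted p = 0.570). Positive bone had 8.05, 10.0, 2.31 and 1.02 CPM, within the range of the other tissues because positive liver replicate 1 alone had 19.5 CPM. The log2 difference was 1.29 (SE 0.97, adjusted p = 0.316), and 2.63 with the pool as a block (SE 0.93, adjusted p = 0.0412). Pool 1 was the highest of the positive samples of brain, liver and lung. Between the sorts it did not pass in bone (log2 difference 1.26, SE 0.64, adjusted p = 0.623), brain (-0.60, adjusted p = 0.731) or liver (2.41, SE 1.05, adjusted p = 0.366), and in lung it was not tested. IIA samples had 20.8 to 39.0 CPM in negative (median 31.3) and 19.1 to 57.2 CPM in positive cells (median 25.2). That log2 difference was -0.32 (SE 0.26, adjusted p = 0.313), and -0.57 without positive sample 4 (adjusted p = 0.0324).

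Il7 (chr3:7572028-7613760), the lymphoid growth factor, was close to absent from these cells. It had 0 to 1.65 CPM in every sample, the highest with 14 UMIs in positive liver replicate 1. No class mean passed 1.75 CPM. In lung 25 of its 42 UMIs (59.52%) lay in alveolar macrophages, and in liver 16 of 26 lay in unnamed clusters. A difference between tissues was not detectable at this depth.

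**Figure D3:**
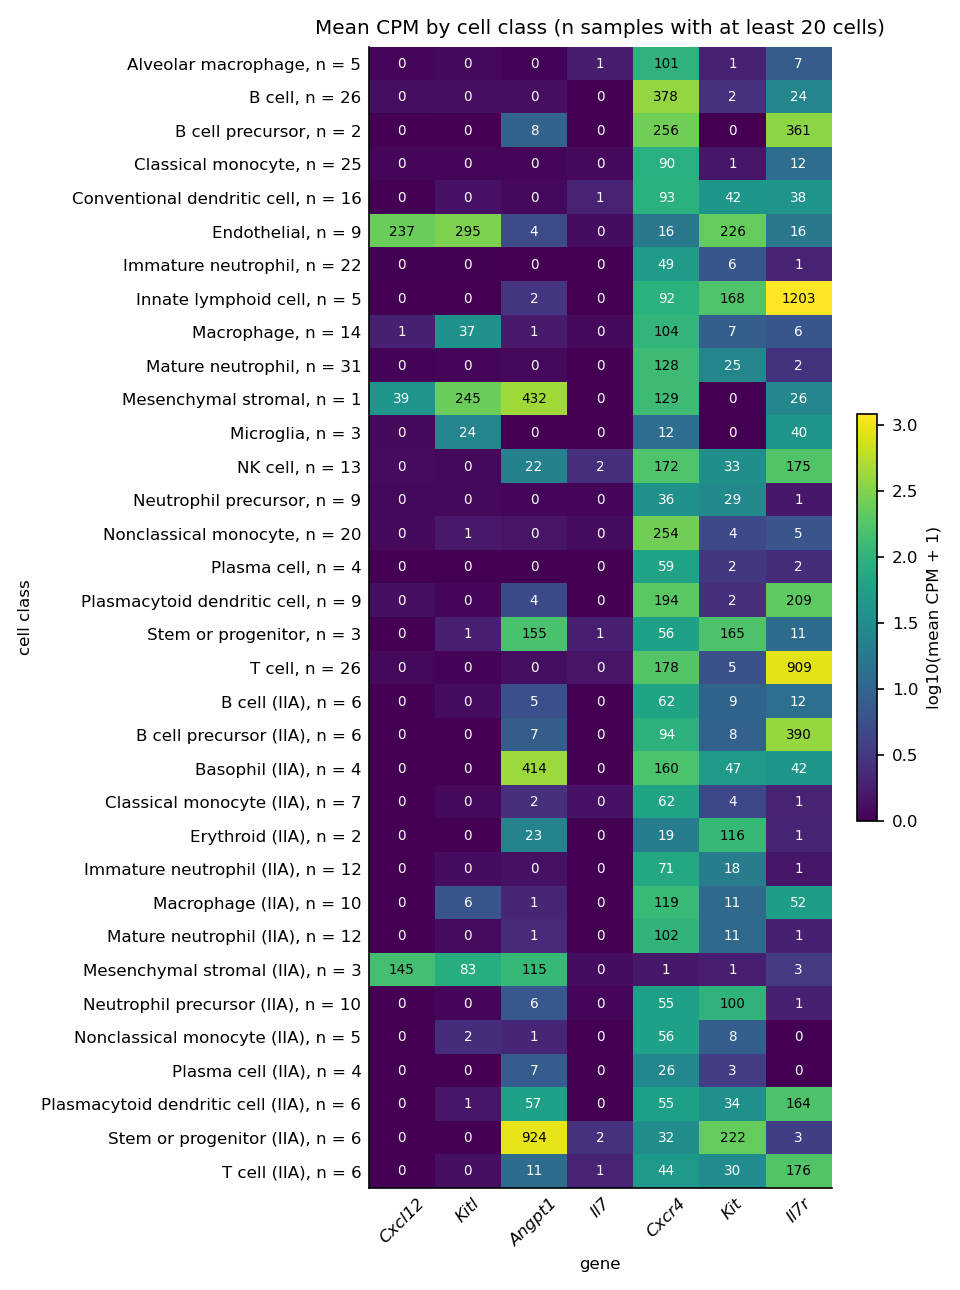
Mean level of each member in each cell class, as CPM averaged over samples with at least 20 cells of the class, with the number of such samples beside the class. Intracardiac and IIA experiments are shown apart because their chemistry differs. The ligands Cxcl12 and Kitl are high in endothelial and mesenchymal classes, Il7r in lymphoid classes, and Cxcr4 is read in nearly every class.

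The chemokine receptor Cxcr4 (chr1:128588199-128592299) was broad. Its highest intracardiac class means were B cells at 378 ± 196 CPM (SD, n = 26 samples), B cell precursors at 256 ± 70.0 (n = 2, from bone and brain), nonclassical monocytes at 254 ± 115 (n = 20) and plasmacytoid dendritic cells at 194 ± 96.0 (n = 9). T cells had 178 ± 88.4 (n = 26), NK cells 172 ± 113 (n = 13) and mature neutrophils 128 ± 66.5 (n = 31). Each of these neighbours lay within the spread of the next. Stem or progenitor cells had 56.4 ± 23.1 CPM (n = 3, from bone and brain) and neutrophil precursors 36.2 ± 8.72 (n = 9). In IIA bone the highest class mean was that of basophils at 160 ± 52.2 CPM (n = 4).

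In negative cells, bone had 100.2, 101, 73.6 and 56.4 CPM of Cxcr4, brain 101, 126, 156 and 70.0 CPM, liver 77.5, 158, 115 and 63.9 CPM, and lung 184, 203, 250.1 and 124 CPM. Lung was highest in 4 of 4 pools and bone lowest in 3 of 4. The log2 difference of bone from the 3 tissues was -0.51 (SE 0.23, adjusted p = 0.132), and with the pool as a block, -0.48 (SE 0.12, adjusted p = 0.011). Against lung alone, Cxcr4 was lower in bone by 1.05 on the log2 scale (log2 change -1.05, SE 0.28, adjusted p = 0.0150), where 25.6% of all genes passed. The differences from brain (-0.36, adjusted p = 0.743) and liver (-0.11, adjusted p = 0.824) did not pass. Among positive cells, bone had 91.7, 122, 48.8 and 46.4 CPM, within the range of the other tissues, at a log2 difference of -0.05 (SE 0.25, adjusted p = 0.903).

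Cxcr4 fell in the positive cells of lung and of IIA bone. Positive lung had 103, 142, 103 and 90.3 CPM, lower than the negative sample of the same pool in 4 of 4 pools although the highest positive sample passed the lowest negative one. The log2 change was -1.05 (SE 0.21, adjusted p = 0.0125). In IIA bone, negative samples had 55.3 to 80.0 CPM (median 71.2) and positive ones 45.6 to 63.6 CPM (median 56.2), which overlapped, with a log2 change of -0.53 (SE 0.12, adjusted p = 0.00339). In brain the difference was -0.68 (SE 0.32, adjusted p = 0.266), and -0.73 with the pool as a block (SE 0.16, adjusted p = 0.0493). Beside these values, the 13 B cell markers summed to 264 to 1353 CPM in negative and 50.3 to 340 CPM in positive lung, and to 344 to 1085 against 44.8 to 271 CPM in IIA bone, with 0 markers at 0. Their part in the changes was not tested.

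Because the mix of cells differed between tissues, bone was also compared with the other tissues within each of 11 classes of negative cells. A tissue entered for a class only with at least 2 samples of at least 10 cells, so the tissues compared differed between classes. For neutrophil precursors brain alone remained beside bone. Such cells made at most 0.257% of a negative liver sample and 0.0325% of a negative lung sample. Over 21 tests, 0 members passed (2 unadjusted, 0 by DESeq2). The share of all genes that passed was 1.76% in mature neutrophils, 0.239% in B cells, 0.184% in immature neutrophils, 0.159% in classical monocytes, 0.108% in conventional dendritic cells, 0.0758% in T cells, and 0% in neutrophil precursors, NK cells, nonclassical monocytes, plasma cells and plasmacytoid dendritic cells. With the pool as a block many more did: 542 against 120 genes in mature neutrophils, 182 against 16 in B cells, 158 against 15 in classical monocytes and 105 against 5 in T cells.

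Cxcr4 of B cells and Kit of mature neutrophils passed with the pool as a block, and also without the filter on low counts (adjusted p = 0.0225 and 0.0011), but not in the test as planned. The block called 182 of the 6681 genes tested in B cells and 542 of the 6813 in mature neutrophils. B cell Cxcr4 in negative cells was 175, 546, 291 and 136 CPM in bone, 300.9, 898, 520 and 397 CPM in brain, 257, 784, 285 and 152 CPM in liver, and 356, 697, 491 and 344 CPM in lung. Pool 2 was highest in 4 of 4 tissues, and bone was lowest in 3 of 4 pools. The log2 difference was -0.69 without the block (SE 0.37, adjusted p = 0.875) and -0.77 with it (SE 0.15, adjusted p = 0.00605).

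**Figure D4:**
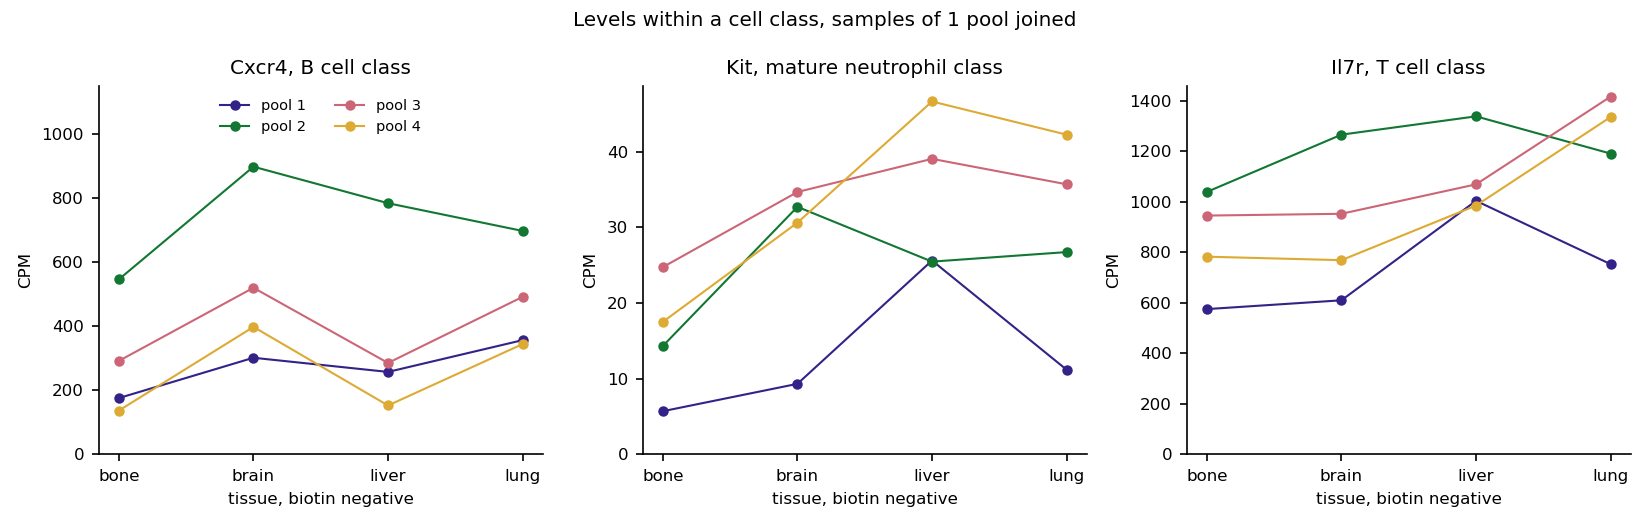
Levels within a class of biotin negative cells in CPM by tissue, with the samples of 1 pool joined by a line: Cxcr4 in B cells, Kit in mature neutrophils and Il7r in T cells. Pool 2 lies highest for Cxcr4 in all 4 tissues, and bone is the lowest tissue for neutrophil Kit in every pool. The mature neutrophil class joins several clusters, which samples filled unequally.

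Kit (chr5:75574987-75656722), the receptor for Kit ligand, was read in progenitors and in endothelium. In bone 948 of 2283 UMIs (41.52%) lay in neutrophil precursors, 15.55% in immature neutrophils and 8.629% in stem or progenitor cells. In liver 431 of 1152 UMIs (37.41%) lay in endothelial cells, in lung 27.45% did, and mature neutrophils held 46.5% of the lung UMIs. In IIA bone 3264 of 6467 UMIs (50.47%) lay in neutrophil precursors, and 25.22% in unnamed clusters. Positive sample 5 alone held 3403 of the IIA UMIs. The highest intracardiac class means were those of endothelium at 226 ± 169 CPM (SD, n = 9), innate lymphoid cells at 168 ± 46.9 (n = 5) and stem or progenitor cells at 165 ± 33.4 (n = 3, from bone and brain), which did not differ beyond their spread. Conventional dendritic cells had 42.2 ± 18.3 CPM (n = 16), below the spread of the innate lymphoid and the stem or progenitor cells. In IIA bone stem or progenitor cells had 222 ± 85.7 CPM (n = 6), erythroid cells 116 ± 48.5 (n = 2) and neutrophil precursors 100.2 ± 23.7 (n = 10).

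Endothelial Kit was read as 2 UMIs in brain, where endothelial Cxcl12 was high, and was present in liver, where Cxcl12 was low, while lung had both. Brain endothelium had 0 UMIs in 7 of 8 samples and 10.7 CPM in positive replicate 1. The 31 negative brain cells with 0 UMIs allow up to 37.9 CPM. Liver endothelium had 225, 193, 408 and 274 CPM in negative and 246, 135, 516 and 305.02 CPM in positive samples, and lung endothelium 227, 433 and 547 CPM in negative and 251, 614, 183 and 52.5 CPM in positive samples. Positive liver replicate 4 held 94 cells and 17 Kit UMIs in all. The brain samples with 0 UMIs held 3 to 23 endothelial cells each, too few to rank single samples against those of liver and lung. No test was made on these clusters.

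Summed over all cells, Kit in positive bone (18.8, 19.0, 43.4 and 17.3 CPM) lay above negative bone (3.13, 6.28, 13.2 and 6.80 CPM) in every sample, as in 4.58% of all genes. The log2 difference was 1.504 (SE 0.50, adjusted p = 0.615). Positive brain had 17.3, 4.05, 15.8 and 10.0 CPM and positive liver 13.4, 3.42, 83.1 and 35.2 CPM, so that positive bone lay within the range of liver. Its log2 difference from the 3 tissues was 0.78 (SE 0.61, adjusted p = 0.338), and 1.12 with the pool as a block (SE 0.40, adjusted p = 0.0456). In negative cells the log2 difference was -0.78 (SE 0.46, adjusted p = 0.234).

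Kit rose in positive IIA cells, from 19.3 to 31.4 CPM (median 25.1) in negative to 23.8 to 122 CPM (median 81.6) in positive samples. Samples 2 and 3 of the positive cells overlapped with the negative ones, and the log2 change was 1.26 (SE 0.35, adjusted p = 0.00918). The 9 neutrophil precursor markers rose beside it, from 2491 to 3523 CPM in negative to 4740 to 27330 CPM in positive samples with 0 markers at 0, and the class made a median of 1.39% of negative and 19.7% of positive cells. In intracardiac bone the class made 2.94% of negative and 8.61% of positive cells. The part of these cells in the change was not tested.

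Within neutrophil precursors, Kit in intracardiac bone was 24.3, 26.7 and 13.9 CPM in negative samples 2 to 4 and 39.3, 39.5, 52.5 and 23.6 CPM in positive samples 1 to 4. It was higher in the positive cells of 3 of 3 pools. The log2 difference was 0.70 (SE 0.25, adjusted p = 0.469), and 0.68 with the pool as a block (SE 0.12, adjusted p = 0.00206). Without the filter on low counts it also passed (adjusted p = 0.0444). Cxcr4 of the same cells was lower in 3 of 3 pools, at -0.41 (SE 0.20, adjusted p = 0.575; with the block SE 0.11, adjusted p = 0.0306). Across the 8 classes tested between the sorts of bone, 0 of 15 member tests passed (3 unadjusted, 0 by DESeq2), and 0.0324% of all genes in neutrophil precursors and 0% in each other class. In IIA bone, precursor Kit was 49.9 to 117 CPM in negative and 99.8 to 141 CPM in positive samples (log2 difference 0.41, SE 0.15, adjusted p = 0.0703), where 11.4% of all genes and 0 of 2 members passed (1 unadjusted). It passed without the filter on low counts (adjusted p = 0.0483), without negative sample 1 (0.0149) or without positive sample 6 (0.0477).

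Kit of mature neutrophils in negative cells was 5.67, 14.3, 24.7 and 17.5 CPM in bone and 9.30, 32.7, 34.7 and 30.6 CPM in brain. Liver had 25.6, 25.5, 39.1 and 46.7 CPM and lung 11.2, 26.7, 35.7 and 42.3 CPM. Bone was the lowest of the 4 tissues in 4 of 4 pools, while the groups as such overlapped. The log2 difference was -1.16 (SE 0.39, adjusted p = 0.165), and -1.25 with the pool as a block (SE 0.22, adjusted p = 0.00109). The class joined clusters that samples filled unequally. Negative bone replicate 4 held 37.89% of the 1710 cells of a shallow cluster led by Igfbp6 and Csf3r. The largest parts of the others came from negative lung replicates 2 and 4, at 18.75% and 18.18%. The part of this mix in the difference was not tested.

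In the IIA stem or progenitor class, Kit fell in positive cells and Angpt1 also passed in the test as planned, though not in several alternatives, with 2 of 3 members passing (3 unadjusted) where 17.6% of all genes did and 9.18% were lower. Kit was 205, 259, 340, 197, 244 and 262 CPM in negative samples. The 3 positive samples with at least 10 cells had 38.1, 81.3 and 33.0 CPM (11, 25 and 15 cells), all below every negative sample, as in 17.3% of all genes there, and the log2 change was -2.11 (SE 0.29, adjusted p = 5.94e-05). The other 3 positive samples, with 1 to 6 cells, had 0, 42.7 and 42.9 CPM, and with all samples of at least 5 cells the log2 change was -2.23. Angpt1 was 723, 1415, 1333, 1080, 1076 and 756 CPM in negative samples and 774, 578 and 437 CPM in the 3 positive ones, which overlapped, at a log2 change of -0.83 (SE 0.22, adjusted p = 0.0140). Without positive sample 5 or 6 the adjusted p was 0.0572 or 0.115. The other member tested was Cxcr4, at 21.5 to 49.4 CPM in negative and 12.7, 21.4 and 2.75 CPM in the 3 positive samples, which lay just below (log2 difference -1.30, SE 0.55, adjusted p = 0.108).

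The cells of that class differed between the sorts in more than the members. Of 14 tested markers of the class 11 were lower and 1 was higher, with a median log2 change of -1.26, and 6 of 6 tested megakaryocyte and platelet markers were higher, with a median of 3.43. The positive cells were also deeper, at a median of 11299.5 UMIs per cell against 5425.5. The part of these in the fall of Kit and Angpt1 was not tested. In intracardiac bone, stem or progenitor Kit was 205, 183 and 210 CPM in negative replicates 2 to 4 and 179, 127, 390 and 101 CPM in positive replicates 1 to 4, which overlapped.

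**Figure D5:**
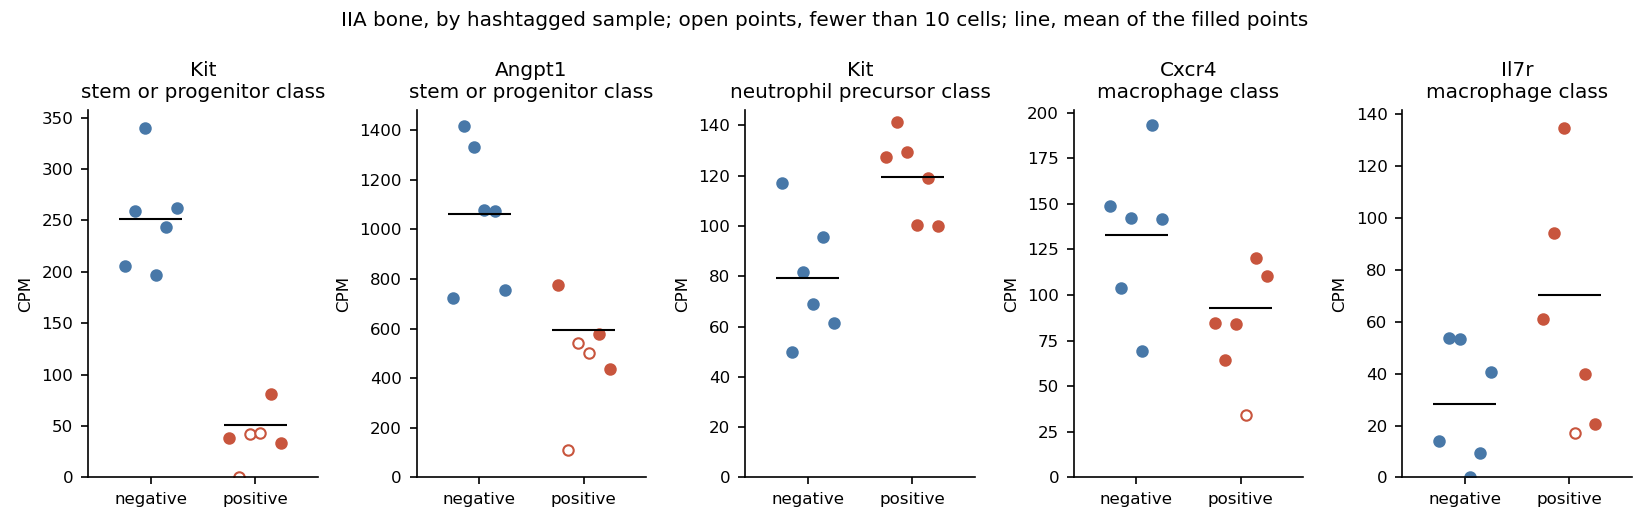
Levels in CPM within classes of IIA bone, negative against positive samples: Kit and Angpt1 in the stem or progenitor class, Kit in neutrophil precursors, and Cxcr4 and Il7r in macrophages. Points are hashtagged samples, open where the sample held under 10 cells of the class and was not tested, and lines are means of the filled points. Stem or progenitor Kit of the tested positive samples lies below that of each negative sample.

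Il7r (chr15:9506159-9529941), the alpha chain of the IL-7 receptor, followed lymphoid cells. Intracardiac class means were 1203 ± 297 CPM in innate lymphoid cells (SD, n = 5), 909 ± 297 in T cells (n = 26), 361 ± 107 in B cell precursors (n = 2, from bone and brain), 209 ± 31.9 in plasmacytoid dendritic cells (n = 9) and 175 ± 197 in NK cells (n = 13). The first 2 and the last 2 did not differ beyond their spread. In IIA bone, B cell precursors had 390 ± 53.2 CPM (n = 6), T cells 176 ± 90.6 (n = 6), plasmacytoid dendritic cells 164 ± 30.1 (n = 6) and macrophages 52.2 ± 38.4 (n = 10). T cells held 74.04% of the lung UMIs and 58.42% of those in bone, and B cell precursors 35.2% of those in IIA bone.

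Il7r was lower in negative bone than in the other tissues. Bone had 72.6, 28.7, 15.1 and 6.07 CPM, brain 44.0, 62.6, 154 and 48.4 CPM, and lung 218, 80.5, 273 and 187 CPM. Liver had 76.2, 75.4, 78.8 and 43.5 CPM. Lung was highest in 4 of 4 pools and bone lowest in 3 of 4, with bone replicate 1 inside the range of brain and liver. The log2 change was -1.71 (SE 0.45, adjusted p = 0.0220), and the call was lost without bone replicate 2 (adjusted p = 0.0562), 3 (0.0925) or 4 (0.0758). Against single tissues it was -2.62 for lung (SE 0.53, adjusted p = 0.00467), where 25.6% of all genes passed, and -1.11 for liver (adjusted p = 0.165), where 8.09% did. For brain it was -1.40 (adjusted p = 0.532), where 0.0229% did (3 genes). The 18 T cell markers moved alike: they summed to 111 to 845 CPM in negative bone (median 214) and to 698 to 2029 CPM in negative lung (median 1323), with 0 markers at 0, and T cells made a median of 4.59% of bone and 21.7% of lung cells.

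Within T cells the tissues overlapped. Il7r was 574, 1039, 945 and 782 CPM in bone, 609, 1265, 952 and 768 CPM in brain, 1003, 1338, 1068 and 984 CPM in liver, and 752, 1190, 1416 and 1335 CPM in lung. The log2 difference of bone was -0.30 (SE 0.19, adjusted p = 0.850).

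Positive cells had less Il7r in lung, at 43.8, 40.8, 40.6 and 65.4 CPM, all below the negative samples. Of all genes in lung, 21.6% had no overlap. The log2 change was -2.19 (SE 0.32, adjusted p = 0.00360), and the T cell markers fell to 132 to 406 CPM (median 261), with T cells at a median of 2.59% of cells. In bone the log2 difference between the sorts was -0.94 (SE 0.66, adjusted p = 0.673). Among positive cells, bone differed from the other tissues by -1.34 on the log2 scale (SE 0.60, adjusted p = 0.0949; with DESeq2 -1.41, adjusted p = 0.0378). In IIA bone, negative samples had 14.9 to 40.3 CPM (median 23.9) and positive ones 1.40 to 54.4 CPM (median 5.87), with a log2 difference of -0.55 (SE 0.79, adjusted p = 0.585).

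In IIA macrophages Il7r rose and Cxcr4 fell in positive cells, both members tested there passing where 25.3% of all genes did, 13% higher and 12.3% lower. IIA T cells and B cell precursors, where Il7r was higher, were not tested between the sorts. Il7r was 14.2, 53.6, 53.2, 0, 9.31 and 40.5 CPM in negative and 61.0, 94.4, 135, 40.0 and 20.7 CPM in the 5 positive samples with at least 10 cells. The sorts overlapped, with a log2 change of 1.33 (SE 0.45, adjusted p = 0.0386). Cxcr4 was 149, 104, 142, 69.1, 193 and 142 CPM in negative and 84.5, 64.3, 84.1, 120 and 110 CPM in those positive samples, with a log2 change of -0.62 (SE 0.22, adjusted p = 0.0472). The positive class held 716 cells of the larger macrophage cluster and all 78 of the smaller one, while the 378 negative cells all lay in the larger. Other genes of the class moved too, among them Vcam1 (log2 change 7.30), Itgb1 (1.20), Ccr2 (-2.08) and Itgal (-1.31), and the part of the mix of macrophages in the 2 members' changes was not tested. Both calls of the members were lost with DESeq2 (adjusted p = 0.0663 for Il7r and 0.0645 for Cxcr4). That of Cxcr4 was also lost without the highest Scrublet scores (0.0722) and without the filter on low counts (0.0604). That of Il7r was also lost with at least 30 cells per sample (0.0542). Il7r lost its call without any 1 of negative samples 1, 4, 5 and 6 and positive samples 2 and 3 (adjusted p = 0.054 to 0.157), and Cxcr4 without any 1 of negative samples 1, 3, 5 and 6 and positive samples 1 to 3 (0.065 to 0.163).

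In the other IIA classes 0 members passed. The share of all genes was 11.5% in immature neutrophils (0 of 2 members unadjusted), 10.7% in mature neutrophils (1 of 1), 0.32% in classical monocytes (1 of 1) and 0% in plasma cells, where no member was tested. The 1 of 1 was Cxcr4 both times, higher in positive cells by 0.57 (adjusted p = 0.130) and 0.74 (SE 0.23, adjusted p = 0.205) on the log2 scale.

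Other genes of these pathways were counted in 5 lists. In negative bone against the other tissues, where 6.83% of all genes were lower, 4 of 9 tested genes of the CXCL12 axis and adhesion list were lower and 0 higher, led by Icam1 (log2 change -1.49, adjusted p = 0.0225) and Itgb1 (-0.77, adjusted p = 0.0250), both adhesion molecules of leukocytes. The marrow egress list held receptors, their regulator Klf2 and the kinase Sphk1. Of its 8 genes 2 were lower, Klf2 (-1.67, adjusted p = 0.0170) and the sphingosine phosphate receptor S1pr1 (-1.43, adjusted p = 0.0403). Of 10 IL-7 receptor signalling genes 2 were lower, the kinase Jak1 (-0.51) and the common chain Il2rg (-1.22), and of 10 stem cell factors and receptors 3 were lower, led by the angiopoietin receptor Tek (-3.09, adjusted p = 0.0326). Of 4 tested marrow stroma genes 0 passed. The lists' medians ran from -0.37 to -1.03, against -0.01 over all genes. T cell markers had a median sum of 214 CPM in negative bone, against 517, 552 and 1323 CPM in negative brain, liver and lung. Endothelial markers had 35.7 CPM, against 78.8, 207 and 59.9 CPM. The part of these cells in the lists' changes was not tested.

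In positive bone against positive cells of the other tissues, S1pr4 (log2 change 1.39) and the bone collagen Col1a1 (3.79) were higher, where 31.5% of all genes passed in either direction. Lower were 3 of 10 genes of the CXCL12 axis and adhesion list, 0 of 10 of IL-7 receptor signalling, 2 of 8 of the egress list, 3 of 9 of marrow stroma and 2 of 10 of stem cell factors and receptors, among them Itgb1, S1pr1, the endothelial cadherin Cdh5 (-4.64) and Tek (-3.78). The 16 endothelial markers summed to 33.6 to 93.9 CPM in positive bone against 129 to 723 in brain, 444 to 1707 in liver and 119 to 998 in lung, with 0 at 0, and their part was not tested. Between the sorts of bone 0 genes passed in any of the 5 lists. In IIA bone, where 27% of all genes were higher and 23.2% lower, genes of the marrow stroma list were higher in 3 of 4 tested, with Vcam1 at 2.62 and Col1a1 at 4.72. Vcam1 also led the smaller IIA macrophage cluster, whose cells were all positive. In IIA bone 4 of 7 tested genes of the egress list were lower and 0 higher (S1pr4 -1.69, Cxcr2 -1.86), with a list median of -1.33 against 0.08 over all genes, and 5 of 9 adhesion genes were lower and 2 higher. Neutrophil markers moved with these lists: the 15 of mature neutrophils summed to 172800 to 214100 CPM in negative and 34380 to 72780 CPM in positive samples, and the 13 of immature ones to 40810 to 62500 and 8186 to 22860 CPM, with 0 markers at 0. Their part in the lists' changes was not tested. In positive lung, where 6.8% of all genes were lower, 5 of 9 IL-7 receptor signalling genes were lower and 0 higher, among them Jak1 (-0.93) and Il2rb (-2.95), and Lepr, the leptin receptor, was higher (5.35). NK cell markers had a median sum of 2322 CPM in negative and 374 CPM in positive lung, and T cell markers 1323 and 261 CPM, and their part was not tested.

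The genes whose levels ran most alike with each member across the 45 intracardiac clusters were named from 8476 genes by Pearson's r of log2(CPM + 10). The clusters share libraries and depth, so r is a description. For Cxcl12 they were Sparcl1 (r = 0.992), Inmt (0.988) and Mgp (0.983). For Kitl they were Epn2 (0.940), Dlc1 (0.938) and S100a16 (0.907), and for Angpt1 Arhgap6 (0.859), Sdsl (0.858) and H1fx (0.817). For Cxcr4 they were Dock2 (0.724), Dock11 (0.718) and Cytip (0.715), the lowest values of the 7 members. For Kit they were Adgrl4 (0.833), Myct1 (0.803) and Ctla2a (0.768), and for Il7r Bcl11b (0.832) and the T cell receptor genes Trbc2 (0.811) and Trbc1 (0.802). Il7 had Fxyd1 (0.878), Gsta3 (0.855) and Bicc1 (0.854), from 112 UMIs.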

How the data were processed

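UMI counts per gene and cell were deposited by the authors. Per the submitters' processing notes, Cell Ranger and Seurat were used with mm10; per the labels' protocols, intracardiac cells were multiplexed with CellPlex and sequenced from the 3′ end, already split by sample, and IIA cells with TotalSeqC hashtags from the 5′ end. The 7 members and all lists were chosen with earlier results of these data known. Cells needed 500 UMIs, 200 genes and at most 15% mitochondrial UMIs, and IIA cells a leading hashtag of at least 10 counts and 3 times the next. Hashtags were matched by number to the deposited note. Clusters (scanpy 1.11.5, 2000 variable genes, 30 components, Leiden resolution 1.0) were named from 28 marker lists, and 2 were split by a rule chosen after seeing the data, so differences from the study's own names are possible. No doublets were removed. Leaving out the 5% with the highest Scrublet scores (3886 cells) was an alternative.

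Counts were summed per sample, or per sample and class with at least 10 cells, and tested with edgeR 4.0.16 (quasi-likelihood, TMM, low counts filtered, false discovery rate 0.05). An SE is the size of the log2 change over the square root of F. Levels by class used samples with at least 20 cells. DESeq2 1.42.0, RLE scaling, no filter, 30 cells, at most 10% mitochondrial UMIs, a hashtag ratio of 5, the replicate block and each sample left out were alternatives, and 5 cells for the IIA stem class was added after seeing the data. Named genes were the 7 members, the 3 most alike genes of each, and the 2 list genes with the smallest p in each direction. Intracardiac numbers were read as multiplexing pools, which the labels do not name, from shared barcodes and because same-numbered positive and negative samples of a tissue deviated together in 15 of 16 pairs (correlation over 0.1, median 0.355, lowest -0.0228). Blocked values of intracardiac results stand beside those whose call they change, and IIA ones stand with the alternatives. Limits for counts of 0 use 3 counts and cover counting error only. On simulated counts with a log2 change of 2, the test recovered 92.9% of 99 changed genes for negative bone against other tissues (12967 genes, 3.63% false calls) and 87.6% of 97 for the IIA sort (12492 genes, 5.29%). The simulation had no pool effect and changed genes picked at random, so it does not give the power for members with few counts.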

Additional observations from a re-analysis of the deposited data

Results flagged for a closer look

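In 56 sets of a member's levels in 1 group, 12 had a sample whose gap to its nearest neighbour took most of the group's range (Dixon's criterion, which flags about 1 group in 20 by chance). All are CPM over all cells of a sample. For Cxcl12 they were negative bone replicate 3 at 8.871 (next 0.09471), negative IIA sample 6 at 2.417 (next 0.5543) and positive IIA sample 2 at 42.71 (next 11.73). For Angpt1 they were positive IIA sample 4 at 57.22 (next 30.12), positive liver replicate 1 at 19.53 (next 2.072), negative lung replicate 1 at 4.235 (next 0.6592) and positive lung replicate 1 at 4.8 (next 0.6809). Kitl in positive lung replicate 1 was 36.27 (next 4.766) and Kit in positive bone replicate 3 was 43.42 (next 18.99). For Il7r, negative brain replicate 3 was high at 153.8 (next 62.59), positive lung replicate 4 high at 65.37 (next 43.78), and negative liver replicate 4 low at 43.53 (next 75.4).

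Positive lung replicate 1 held 56.51% of the cells of the lung and brain endothelial cluster, and 67 of its 117 Angpt1 UMIs lay in 40 mesenchymal cells. Positive liver replicate 1 held 95.31% of the 64 cells of an unnamed cluster led by Clu, Alb and Tm4sf4.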

How the results depend on the processing

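Of the members' results in single comparisons, RLE scaling and the 10% mitochondrial limit each left all 45 on the same side of the threshold, and leaving out the highest Scrublet scores 52 of 53. The replicate block moved 13 of 59 (11 gained the threshold, 2 lost it), DESeq2 8 of 59 and no filter 7 of 59. Members past the threshold, against the counts in the report, were as follows. DESeq2 gave 2 for negative bone, 1 for positive bone, 2 for brain, 1 for liver, 4 for lung, 4 for IIA bone and 2 for the IIA classes. The replicate block gave 3 for negative bone, 2 for positive bone, 2 for brain, and 2 each for the classes of bone against other tissues and of the bone sorts. Without a filter there were 2 for brain, 2 each for those class sets and 8 for the IIA classes. At least 30 cells gave 1 over 4 IIA classes, and Scrublet 1 over 6, the stem class not being run in either. Leaving out 1 sample gave 0 to 1 for negative bone, 0 to 2 for brain, 0 to 1 for the bone sort classes and 2 to 5 for the IIA classes. The cause of these shifts was not tested.

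Leaving out 1 sample turned the sign of 8 values, whose log2 ranges were -3.06 to 2.84 for Cxcl12 in negative bone, -0.25 to 0.11 for Cxcr4 in positive bone, -1.30 to 0.14 for Il7r in brain, -0.42 to 1.20 for Kit in liver, -0.64 to 0.23 for Kit in lung, and for the bone-specific biotin difference -2.04 to 3.82 for Cxcl12, -0.82 to 1.63 for Kitl and -0.061 to 0.93 for Il7r. In IIA bone the numbers pair samples in 5 of 6 cases by correlation and share only a number. With that block, stem Angpt1 no longer passed (log2 difference -0.56, adjusted p = 0.107), while precursor Kit (0.41, adjusted p = 0.0337) and mesenchymal Cxcl12 (4.31, adjusted p = 0.00015) did.

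Counts of all genes past the threshold moved over 1.5 times in negative bone (2202, DESeq2 3325, block 4871, 400 to 3443 without 1 sample), positive bone (4048, 1421 to 4947), brain (339, DESeq2 1225, no filter 517, block 762, 3 to 758), lung (2254, 1280 to 2381), liver (0, DESeq2 431, 0 to 61), the bone sorts (0, DESeq2 53, block 12) and the bone-specific difference (0, DESeq2 3, block 13). Within classes, the counts as planned and their range over all settings were 120 and 23 to 542 in mature neutrophils of negative cells, 16 and 2 to 182 in B cells, 15 and 1 to 158 in classical monocytes, 13 and 3 to 63 in immature neutrophils, 6 and 1 to 130 in conventional dendritic cells and 5 and 2 to 145 in T cells, and the 5 classes at 0 reached 47 to 146. Between the bone sorts they were 3 and 0 to 898 in neutrophil precursors, and of the 7 classes at 0, immature neutrophils kept 0 and the others reached 6 to 272. In IIA bone they were 1034 and 389 to 1429 in the stem class, 151 and 99 to 744 in mesenchymal cells, 28 and 1 to 265 in classical monocytes, 891 and 525 to 1084 in immature and 497 and 273 to 701 in mature neutrophils, 772 and 503 to 823 in precursors and 0 and 0 to 98 in plasma cells. Of the planned fits, 13 could not be made, such as those at 30 cells for small classes. Depth limits Il7, which at 112 and 33 UMIs did not pass the filter on low counts.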

Other observations

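Unnamed clusters held a part of 4 members that belongs to no class above. A cluster of 344 IIA cells had 1142 Kit UMIs (395 CPM), and 60.47% of its cells came from positive sample 5. The unnamed intracardiac cluster of 64 cells led by Clu, Alb and Tm4sf4 had 12 of the 112 intracardiac Il7 UMIs. In liver 169 of 230 Angpt1 UMIs (73.48%) and 26.1% of the Kitl UMIs lay in unnamed clusters.

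Innate lymphoid cells of the intracardiac samples were high in both a growth factor receptor and a cytokine receptor of this list, with Kit at 168 ± 46.9 CPM and Il7r at 1203 ± 297 CPM (SD, n = 5 samples), and held 19.21% of the Il7r UMIs of brain.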
